A study of Homo sapiens with 18 samples.

Results

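The genes described here are 6 WNT ligands (WNT4, WNT5A, WNT7A, WNT7B, WNT10A and WNT10B), 3 frizzled receptors (FZD6, FZD8 and FZD9) and AXIN2. They were taken by gene name from a count table of 19901 genes, and these 10 rows were read in all 18 libraries. mRNA was sequenced in 3 head-and-neck squamous cell carcinoma lines, each with 3 control and 3 HGF-treated libraries. Detroit 562 comes from a metastatic site of a pharyngeal tumour, FaDu from a primary hypopharyngeal tumour and SCC-9 from a primary tumour of the tongue. Treated cells received 50 ng/mL HGF, the ligand of the receptor tyrosine kinase MET, for 16 h by the sample records (48 h by the series record), and control cells received none. SCC-9 cells were grown in a medium of their own that held 400 ng/mL hydrocortisone in both groups, so medium and line cannot be told apart. Each line came from 1 tumour. The study's methods speak of repeats of the experiment, and control and HGF libraries of one replicate number were taken as pairs because they deviated together from their group means in each line.

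WNT proteins are secreted lipid-modified ligands that bind frizzled receptors on the cell surface. In one branch, together with a co-receptor of the LRP family, they stop the breakdown of beta-catenin, which then enters the nucleus and acts with TCF and LEF factors on target genes. Other branches act without beta-catenin on cell polarity, calcium and movement. In squamous epithelia WNT signals are known for their part in appendage formation and in the upkeep of basal cells.

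The libraries held 35304770 to 44003970 counts in total (median 40138919). Of all genes, 15475 had enough reads to be tested, all 10 members among them. Levels are given as CPM, counts per 1000000 of a library's total after TMM scaling. Each of the 7 squamous epithelial markers reached 1 CPM in at least 1 library, but KRT14 was near that level in Detroit 562. Its control mean was 1.23 CPM there, against 391.2 CPM in FaDu and 2913 CPM in SCC-9. Together the 7 markers made up 2050 to 4450 CPM in Detroit 562. They made up 4550 to 10900 CPM in FaDu and 7650 to 9790 CPM in SCC-9. Fibroblast markers summed to at most 99.4 CPM, leukocyte markers to at most 58.2 CPM (4 of the 5 stayed under 1 CPM in every library) and endothelial markers to at most 8.34 CPM. The members lie on 9 chromosomes of GRCh38. The ligand genes are WNT4 (chr1:22117305-22143969, minus strand), WNT5A (chr3:55465715-55490539, minus), WNT7A (chr3:13816258-13880121, minus), WNT7B (chr22:45920362-45977129, minus), WNT10A (chr2:218880363-218899581, plus) and WNT10B (chr12:48965340-48971763, minus). The receptor genes are FZD6 (chr8:103298433-103332866, plus), FZD8 (chr10:35638249-35642278, minus) and FZD9 (chr7:73433783-73436120, plus), and AXIN2 lies at chr17:65528563-65561647 on the minus strand. AXIN2 is the single member that overlaps another gene of the table on its own strand (CTD-2535L24.2), and reads in the overlap were counted for both.

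In Detroit 562 most of these genes were called after HGF. WNT4, WNT5A, WNT10A and AXIN2 fell, and WNT7A, WNT10B, FZD8 and FZD9 rose. These were 8 of the 10 members, where 17.9% of all genes tested were called (6.16% up and 11.7% down). The members were chosen with earlier results of these data known, so the count against that share is no test of the set. To be called, a gene had to pass an adjusted p of 0.1 and to rise or fall by 0.4 or more on the log2 scale. The members' median log2 fold change was -0.19, against -0.01 over all genes tested. In all 10 members the control and the HGF-treated libraries of Detroit 562 did not overlap, as in 38.2% of all genes tested, and all 3 same-numbered pairs moved in one direction; the exact two-sided permutation p was then 0.1, the smallest that 3 libraries against 3 allow. In cultures measured in bulk, fewer cells that express a gene and less RNA per cell cannot be told apart.

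Promoter windows of 250 bases before the start site are shown for 2 members that fell with HGF in Detroit 562, WNT5A and WNT10A, and 2 that rose, WNT7A and FZD8, since on either side these were the called members with the most reads that the RefSeq promoter table (GRCh38.p14) holds. Sequences run 5′ to 3′ on the strand of the gene, and capitals mark motif matches.
WNT5A (chr3:55481399-55481648, minus strand): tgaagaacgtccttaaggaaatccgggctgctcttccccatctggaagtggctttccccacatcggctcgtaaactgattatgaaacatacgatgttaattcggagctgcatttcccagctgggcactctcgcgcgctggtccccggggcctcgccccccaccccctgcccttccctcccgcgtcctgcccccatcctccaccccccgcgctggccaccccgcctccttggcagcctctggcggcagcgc
WNT10A (chr2:218880602-218880851, plus strand): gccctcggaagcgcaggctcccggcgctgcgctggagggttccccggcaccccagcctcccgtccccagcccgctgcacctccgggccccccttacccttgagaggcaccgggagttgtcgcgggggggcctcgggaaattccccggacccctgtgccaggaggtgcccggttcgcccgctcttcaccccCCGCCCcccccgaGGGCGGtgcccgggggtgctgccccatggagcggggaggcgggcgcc
WNT7A (chr3:13880072-13880321, minus strand): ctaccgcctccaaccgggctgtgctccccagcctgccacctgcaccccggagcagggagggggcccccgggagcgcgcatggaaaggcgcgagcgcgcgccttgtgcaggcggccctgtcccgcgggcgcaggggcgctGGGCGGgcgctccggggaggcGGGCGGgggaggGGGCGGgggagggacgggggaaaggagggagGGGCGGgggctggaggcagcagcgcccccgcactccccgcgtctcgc
FZD8 (chr10:35642297-35642546, minus strand): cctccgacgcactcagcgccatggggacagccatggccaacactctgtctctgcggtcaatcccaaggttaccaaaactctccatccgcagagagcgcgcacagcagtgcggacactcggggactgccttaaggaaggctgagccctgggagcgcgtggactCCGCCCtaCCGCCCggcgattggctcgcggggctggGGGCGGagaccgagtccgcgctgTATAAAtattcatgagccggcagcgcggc
Both strands were searched. TCF/LEF motifs were read as CTTTGAT and, with the last base changed, as CTTTGAA. AP-1 motifs were read as TGACTCA, which is TGAGTCA on the other strand. The letters for ETS factors were CCGGAAG, those for SP/KLF factors GGGCGG and those of the box near some start sites TATAAA. None of these motifs is part of another. The WNT5A window shown held no match. SP/KLF letters occurred 2 times in the WNT10A window, 4 times in that of WNT7A and 3 times in that of FZD8, and FZD8 also held TATAAA, starting at -29. Of 35116 promoter windows of the same length, 42.6% held the SP/KLF letters, 10.7% TATAAA, 8.52% the ETS letters, 5.94% those of TCF/LEF and 4.2% those of AP-1. WNT5A has a further window in the table, and WNT4 and FZD9 have 1 each, so 6 of the 10 members matched with 7 windows. Both WNT5A windows and those of WNT10A and WNT4 lie inside the spans of the genes given above. The WNT7A window lies partly inside its gene's span, and those of FZD8 and FZD9 lie outside theirs. In the further WNT5A window 92 bases lie in exons of GENCODE 44. In the windows not shown, SP/KLF letters occurred 1 time for WNT5A, 9 times for WNT4 and 2 times for FZD9. None of the 7 held the TCF/LEF, AP-1 or ETS letters. A match is a description of the letters and not of a bound factor.

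Among the ligands, WNT5A, the prototype of signalling without beta-catenin, fell. In Detroit 562 it had 84.7, 84.5 and 37.6 CPM in control replicates 1, 2 and 3 and 24.2, 28.8 and 13.5 CPM after HGF. Control replicate 3 lay well under the other controls and closest to the treated libraries, and treated replicate 3 was likewise the lowest. The log2 fold change was -1.64 (SE 0.354, adjusted p = 0.00473), a fall of 3.11-fold, and within pairs it was -1.81, -1.56 and -1.48.

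WNT10A, a ligand known for its role in teeth and skin appendages, had 99.7, 81.8 and 56.1 CPM in the controls and 45.7, 35.0 and 15.4 CPM after HGF. The lowest control stayed above the highest treated library. Its log2 fold change was -1.30 (SE 0.297, adjusted p = 0.0062). WNT4, known for its role in kidney and reproductive tract development, was read at a much lower level, with 4.43, 3.37 and 1.89 CPM in the controls and 1.01, 0.710 and 0.913 CPM after HGF. The control values of WNT4 spread over more than the treated ones, which lay close together. Its log2 fold change was -1.87 (SE 0.560, adjusted p = 0.0233), on 70 to 188 counts per control and 25 to 41 per treated library. Without control replicate 1 the call of WNT4 was lost (log2 fold change -1.57, adjusted p = 0.112), in a fit that does not use the pairs. Within pairs WNT4 changed by -2.13, -2.25 and -1.05 on the log2 scale.

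Of the ligands that rose, WNT7A, known for limb and reproductive tract patterning, had 17.5, 19.7 and 35.3 CPM in the controls and 49.1, 42.8 and 54.4 CPM after HGF. Here too control replicate 3 lay nearest to the treated libraries, and the pair of that number had the smallest rise, 0.63 on the log2 scale against 1.49 and 1.12. The log2 fold change was 1.02 (SE 0.213, adjusted p = 0.00405), a 2.02-fold rise. WNT10B, which is known to favour bone formation over fat cell formation, had 2.64, 3.48 and 4.12 CPM in the controls and 6.48, 5.48 and 5.87 CPM after HGF. Every treated library of WNT10B exceeded every control. Its log2 fold change was 0.80 (SE 0.175, adjusted p = 0.0048).

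WNT7B, a ligand known from lung and kidney development, was the most abundant member in Detroit 562 and was not called. It had 273.6, 261.1 and 254.5 CPM in the controls and 239.1, 227.6 and 202.4 CPM after HGF. The groups did not overlap, but the log2 fold change was -0.24 (SE 0.117, adjusted p = 0.145). A second fit held a term for each replicate number within a line (the block), and there the adjusted p of WNT7B was 0.001 while the change stayed under the minimum of 0.4. WNT7A and WNT7B thus had log2 fold changes of opposite sign in the same libraries, and so had WNT10A and WNT10B.

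Among the receptors, FZD8, a frizzled that binds WNT together with LRP co-receptors, had 2.15, 2.23 and 2.59 CPM in the controls of Detroit 562 and 5.44, 4.17 and 5.36 CPM after HGF. The 3 controls lay close together and all under the treated libraries. The log2 fold change was 1.11 (SE 0.250, adjusted p = 0.00586). FZD9, a frizzled studied in brain and bone, rose from 0.283, 0.435 and 0.485 CPM to 0.916, 1.14 and 0.974 CPM. That was 12 to 18 counts per control and 32 to 40 per treated library, with a log2 fold change of 1.33 (SE 0.324, adjusted p = 0.00841). FZD6, a frizzled of the planar polarity branch, had 154.6, 148.7 and 148.9 CPM in the controls and 130.8, 142.8 and 137.6 CPM after HGF. FZD6 was the receptor with the most reads and the one that was not called, at a log2 fold change of -0.14 (SE 0.0802, adjusted p = 0.221).

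AXIN2, a scaffold of the complex that breaks down beta-catenin and a common beta-catenin target that feeds back on the pathway, had 3.63, 4.02 and 1.86 CPM in the controls of Detroit 562 and 1.41, 1.22 and 0.456 CPM after HGF. Replicate 3 was the lowest of its group on both sides, as for WNT5A. The log2 fold change was -1.61 (SE 0.445, adjusted p = 0.0161), and within pairs it was -1.36, -1.72 and -2.03. The gene that overlaps AXIN2 had 71, 57 and 33 counts in the controls and 19, 21 and 7 after HGF, against 154, 148 and 69 and then 57, 43 and 15 for AXIN2. With the counts of that gene taken off, an alternative chosen after seeing the data, the log2 fold change of AXIN2 was -1.55 (adjusted p = 0.0482). In every FaDu and SCC-9 library that gene had more counts than AXIN2, so AXIN2 was left with no counts there in this fit. Not all counts of the overlapping gene are therefore shared with AXIN2.

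**Figure D1:**
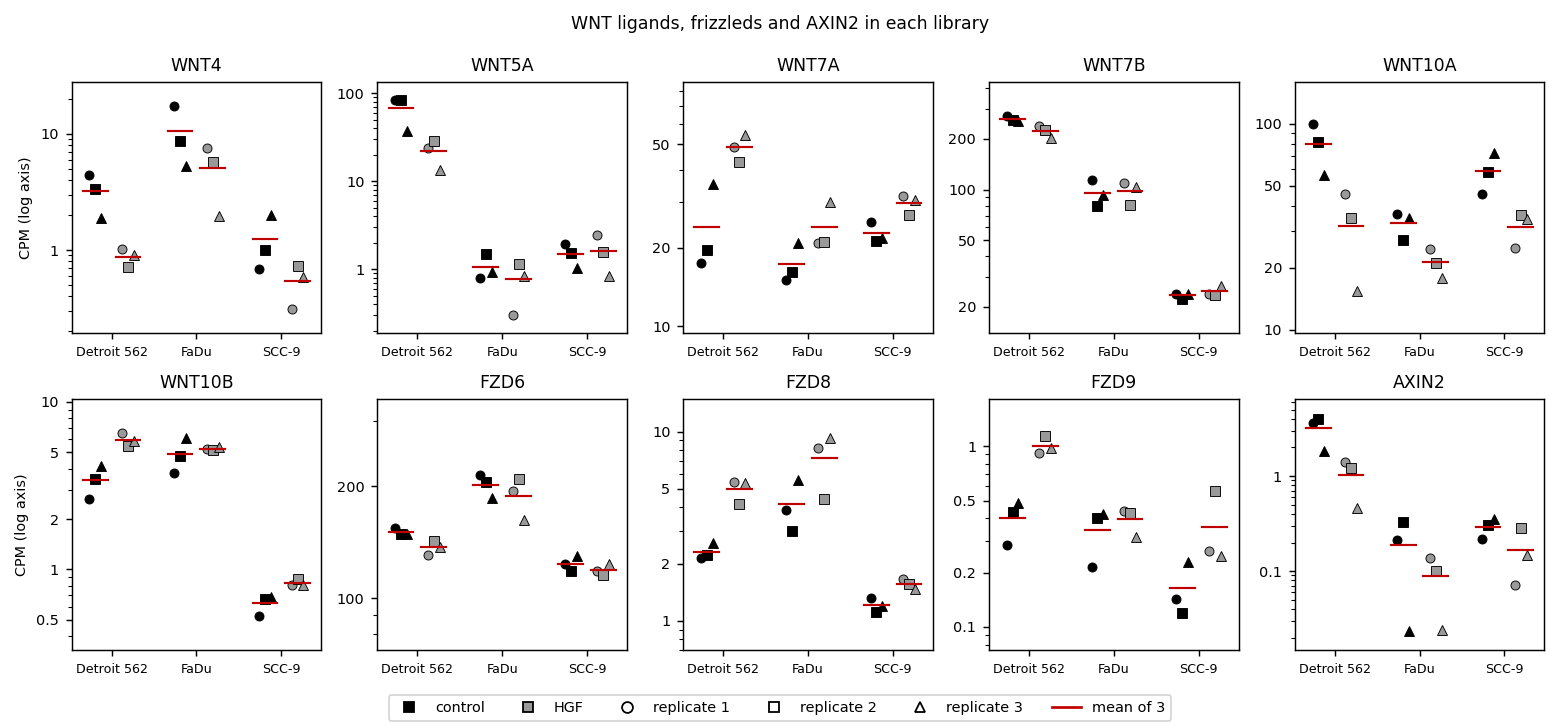
CPM (log axis, one scale per panel) of the 10 members in each library of Detroit 562, FaDu and SCC-9, with control in black, HGF in grey, a symbol per replicate number and the mean of 3 as a red line. In Detroit 562 the control and HGF points of every panel are separate, with WNT5A at 37.6 to 84.7 CPM in controls and 13.5 to 28.8 CPM after HGF.

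Some markers of cell types moved with these changes in Detroit 562. The summed level of all 7 squamous markers was 3040 to 4450 CPM in the controls and 2050 to 3320 CPM after HGF, so the groups overlapped. Most of that difference lay in the keratin KRT5, with a mean of 2105 CPM (SD 557, n = 3) in the controls and 1129 CPM (SD 472) after HGF. CDH1 and TP63 were also lower after HGF without overlap, and EPCAM was higher without overlap (415.8 to 432.8 CPM, then 483.1 to 513.0 CPM). KRT6A and KRT17 overlapped, with means of 639.6 and 242.9 CPM in the controls and 642.1 and 260.5 CPM after HGF. KRT14 overlapped at a very low level, with means of 1.23 CPM in the controls and 1.07 CPM after HGF. The summed level of the 6 fibroblast markers, 4 of which were under 1 CPM throughout this line, was 30.2 to 54.6 CPM in the controls and 15.3 to 27.8 CPM after HGF. The 5 leukocyte markers, 4 of which were under 1 CPM (all but CD68), summed to 20.7 to 40.7 CPM in the controls and 37.7 to 56.6 CPM after HGF, which overlapped. The 4 endothelial markers summed to 1.21 to 2.99 CPM and then to 0.639 to 1.16 CPM. Their part in the members' changes was not tested. With replicate numbers 1 and 2 alone, chosen after seeing the data, all 8 members were again called and the log2 fold change of WNT7A was 1.31. The share of all genes called in that fit is not given.

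In FaDu no member was called without a block, and 4 were with it. By edgeR 0 of the 10 were called, where 0.0258% of all genes tested were, 3 had an unadjusted p below 0.05, and DESeq2 called 0. That share is from edgeR, and the share of all genes called by DESeq2 is not given, here or in the comparisons below. With the block 4 members passed, against 5.6% of all genes: WNT4 and WNT10A fell, and WNT7A and FZD8 rose. WNT4 had 17.5, 8.66 and 5.31 CPM in the controls and 7.58, 5.71 and 1.98 CPM after HGF. The groups of WNT4 overlapped, while each pair fell, by 1.21, 0.60 and 1.42 on the log2 scale. The log2 fold change of WNT4 was -1.04 (SE 0.466, adjusted p = 0.609), and with the block -1.05 (SE 0.169, adjusted p = 0.00125). Without control replicate 1, which held the highest WNT4, the fit without the block gave -0.45.

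WNT10A in FaDu had 36.2, 27.3 and 34.9 CPM in the controls and 24.6, 21.1 and 17.9 CPM after HGF. The groups of WNT10A did not overlap (9.41% of all genes tested), and the log2 fold change was -0.63 (adjusted p = 0.618, with the block 0.00484). WNT7A had 15.1, 16.1 and 20.8 CPM in the controls and 21.0, 21.1 and 30.1 CPM after HGF, a log2 fold change of 0.47 (adjusted p = 0.609, with the block 0.0168). The lowest treated library of WNT7A lay just above the highest control. FZD8 had 3.87, 2.99 and 5.54 CPM in the controls and 8.21, 4.43 and 9.29 CPM after HGF, a log2 fold change of 0.82 (adjusted p = 0.475, with the block 0.000465). Pair 2 was low on both sides in FZD8, which made the groups overlap. FZD8 was called without the block when control replicate 3 (log2 fold change 1.09, adjusted p = 0.0993) or HGF replicate 2 (1.08, adjusted p = 0.0567) was left out.

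The other 6 members were not called in FaDu with or without the block. WNT7B had 79.7 to 113.6 CPM in the controls and 80.8 to 109.1 CPM after HGF, a log2 fold change of 0.04 (SE 0.118). FZD6 had 186.4 to 214.7 and 162.1 to 209.9 CPM, and WNT10B 3.78 to 6.06 and 5.18 to 5.37 CPM. WNT5A was low in this line, at 0.784 to 1.48 CPM in the controls and 0.301 to 1.16 CPM after HGF. AXIN2 was close to the limit of counting, with 9, 13 and 1 counts in the controls and 6, 4 and 1 after HGF, so its log2 fold change of -1.04 had an SE of 0.836 and was -0.41 without control replicate 2. FZD9 had 9 to 18 counts per control and 13 to 19 per treated library. In FaDu the squamous markers summed to 7080 to 10900 CPM in the controls and 4550 to 9470 CPM after HGF, which overlapped. The leukocyte markers, of which CD68 alone reached 1 CPM, summed to 18 to 28.8 CPM and then to 30 to 36.9 CPM, without overlap. The fibroblast markers (4.25 to 6.79 CPM, then 3.60 to 4.70 CPM) and the endothelial markers (2.56 to 8.34 CPM, then 1.57 to 4.93 CPM) overlapped. The part of these markers in the members' values was not tested.

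In SCC-9 edgeR called 0 of the 10 members and 0% of all genes tested, with 2 members at an unadjusted p below 0.05, and DESeq2 called 0. With the block WNT10A and WNT4 fell, 2 of 10 members against 1.97% of all genes. WNT10A had 45.7, 58.2 and 72.3 CPM in the controls and 24.8, 35.8 and 34.4 CPM after HGF. All treated libraries of WNT10A lay under all controls, and the log2 fold change was -0.89 (SE 0.295, adjusted p = 0.964, with the block 0.00157). WNT4 had 0.694, 0.998 and 2.01 CPM in the controls and 0.311, 0.732 and 0.589 CPM after HGF, with a log2 fold change of -1.17 (adjusted p = 1, with the block 0.0702). The groups of WNT4 overlapped.

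The groups of WNT7A, WNT10B, FZD8 and FZD9, the members that rose in Detroit 562, did not overlap in SCC-9 either (17.4% of all genes tested), and none of these genes was called in SCC-9. WNT7A had 21.2 to 25.2 CPM in the controls and 26.8 to 31.8 CPM after HGF, a log2 fold change of 0.39 that is just under the minimum (adjusted p = 1, with the block 0.0784). FZD8 had 1.12 to 1.32 and 1.47 to 1.67 CPM, and WNT10B 0.526 to 0.688 and 0.810 to 0.874 CPM. FZD9 had 5 to 9 counts per control and 10 to 24 after HGF, and its log2 fold change of 1.13 had an SE of 0.409. WNT7B (22.4 to 23.9 CPM in the controls, 23.5 to 26.8 CPM after HGF), FZD6 (118.2 to 129.6 and 115.7 to 123.8 CPM) and WNT5A (1.05 to 1.91 and 0.835 to 2.44 CPM) overlapped between the groups. AXIN2 had 9, 13 and 14 counts in the controls and 3, 12 and 6 after HGF, and its log2 fold change of -0.79 was -1.40 without HGF replicate 2. Leukocyte markers, again CD68 alone above 1 CPM, summed to 54.8 to 55.7 CPM in the controls and 57.8 to 58.2 CPM after HGF, without overlap. The squamous (7650 to 9790 CPM, then 7710 to 9330 CPM), fibroblast (77.4 to 99.4 CPM, then 60.4 to 81.3 CPM) and endothelial sums (1.02 to 1.66 CPM, then 0.908 to 1.2 CPM) overlapped. Their part was not tested here either.

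**Figure D2:**
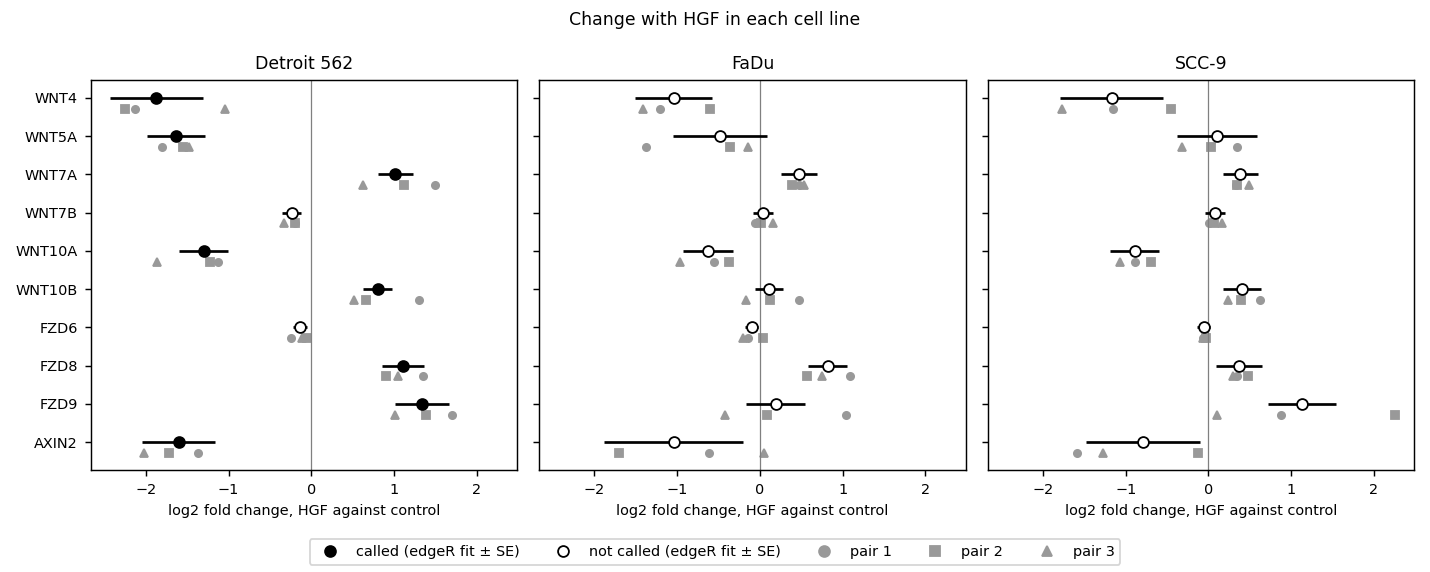
Log2 fold change of HGF against control for the 10 members in each cell line, as the edgeR estimate with its SE (black called, white not called) and as the 3 same-numbered pairs in grey. By the edgeR estimate WNT4, WNT10A, AXIN2 and FZD6 lie left of 0 in each line, and WNT7A, WNT10B, FZD8 and FZD9 lie right of it. In Detroit 562 WNT4 is at -1.87 and WNT10A at -1.30. WNT5A at -1.64 in Detroit 562 is at -0.48 in FaDu and 0.11 in SCC-9.

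Whether the lines responded to a different degree was tested as the difference of the log2 fold changes, with an adjusted p below 0.1 alone as the threshold. These differences share libraries with the changes given above. Between Detroit 562 and FaDu 0 members passed in edgeR, where 0.239% of all genes did, with 2 members at an unadjusted p below 0.05 and 0 in DESeq2. With the block 5 members passed, against 19.1% of all genes. WNT5A differed by -1.13 (SE 0.247, adjusted p = 0.00958) and WNT10A by -0.74 (SE 0.174, adjusted p = 0.0141), with the stronger fall in Detroit 562. WNT10B differed by 0.69 (SE 0.210, adjusted p = 0.0445) and WNT7A by 0.60 (SE 0.158, adjusted p = 0.0246), with the stronger rise in Detroit 562, and WNT7B by -0.28 (SE 0.0701, adjusted p = 0.0196).

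Between Detroit 562 and SCC-9 0 members passed without the block, where 0.924% of all genes did (1 member at an unadjusted p below 0.05, 0 in DESeq2), and 5 with it, against 26.9%. WNT5A differed by -1.72 (SE 0.199, adjusted p = 8.72e-05), FZD8 by 0.73 (SE 0.215, adjusted p = 0.0281) and WNT7A by 0.68 (SE 0.155, adjusted p = 0.00779). WNT10A differed by -0.49 (SE 0.169, adjusted p = 0.0561) and WNT7B by -0.32 (SE 0.0751, adjusted p = 0.00967). Without Detroit 562 control replicate 3 and without the block, the response of WNT7A differed from that in FaDu (0.92, adjusted p = 0.0664), and those of WNT7A (1.01, adjusted p = 0.0296) and WNT5A (-2.04, adjusted p = 0.0519) differed from those in SCC-9. Between FaDu and SCC-9 0 members passed without the block, where 0% of all genes did, and 0 with it, against 1.32% (0 at an unadjusted p below 0.05 and 0 in DESeq2). The differences for WNT4, 0.13 with an SE of 0.761, and for AXIN2, -0.25 with an SE of 1.06, were too imprecise to tell like responses from unlike ones.

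Untreated cells of the 3 lines differed in the levels of these genes, as they did for most genes tested. Detroit 562 stood out by its high WNT5A and AXIN2, and WNT7B was highest in Detroit 562 and lowest in SCC-9. FaDu had the highest WNT4, FZD6 and FZD8. Of the 10 members 9 were called between Detroit 562 and FaDu, where 61% of all genes tested were called, 7 between Detroit 562 and SCC-9 (65.4%) and 7 between FaDu and SCC-9 (64.2%).

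WNT5A had a mean of 68.9 CPM in control Detroit 562 (SD 27.2, n = 3), 1.07 CPM in FaDu (SD 0.367) and 1.05 to 1.91 CPM in the 3 SCC-9 controls. The lowest Detroit 562 control, at 37.6 CPM, lay far above the highest library of the other lines, at 1.91 CPM. The difference was 64.7-fold against FaDu (adjusted p = 4.11e-09) and 45.7-fold against SCC-9 (adjusted p = 6.5e-09). AXIN2 had 3.17 CPM in Detroit 562 (SD 1.15), 0.188 CPM in FaDu (SD 0.153) and 0.294 CPM in SCC-9 (SD 0.0720). That was 16.8-fold against FaDu (adjusted p = 3.94e-06) and 10.7-fold against SCC-9 (adjusted p = 1.2e-05), with 1 to 14 counts per control in those lines. The log2 difference of AXIN2 from FaDu, 4.07, was 4.71 without FaDu control replicate 2 and 3.54 without control replicate 3. In FaDu and SCC-9 the overlapping gene had more counts than AXIN2 in every library.

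WNT7B had 263.1 CPM in Detroit 562 (SD 9.66), 95.5 CPM in FaDu (SD 17.1) and 23.4 CPM in SCC-9 (SD 0.855), and the libraries of the 3 lines did not overlap. The difference was 2.75-fold between Detroit 562 and FaDu (adjusted p = 8.83e-09), 11.2-fold between Detroit 562 and SCC-9 (adjusted p = 4.29e-13) and 4.08-fold between FaDu and SCC-9 (adjusted p = 1.9e-10). SCC-9 was also lowest in WNT10B, which stood at 3.41 CPM in Detroit 562 (SD 0.742), 4.87 in FaDu (SD 1.14) and 0.627 in SCC-9 (SD 0.0877). The gap to SCC-9 was 5.42-fold for Detroit 562 (adjusted p = 1.32e-08) and 7.74-fold for FaDu (adjusted p = 1.05e-09). The call of WNT10B between Detroit 562 and FaDu (log2 fold change -0.52, adjusted p = 0.0142) was lost without FaDu control replicate 3 (-0.33) and without Detroit 562 control replicate 1.

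WNT4 had 10.5 CPM in FaDu (SD 6.30), 3.23 CPM in Detroit 562 (SD 1.28) and 1.24 CPM in SCC-9 (SD 0.691). FaDu exceeded Detroit 562 by 3.24-fold (adjusted p = 0.00462) and SCC-9 by 8.52-fold (adjusted p = 4.94e-05). Without FaDu control replicate 1 the log2 difference between Detroit 562 and FaDu was -1.11 in place of -1.69, and that between FaDu and SCC-9 was 2.5 in place of 3.09. Detroit 562 and SCC-9 overlapped for WNT4, and their call (log2 fold change 1.40, adjusted p = 0.0248) was lost without Detroit 562 control replicate 1 (adjusted p = 0.105). WNT10A had 79.2 CPM in Detroit 562 (SD 21.9), 58.7 CPM in SCC-9 (SD 13.3) and 32.8 CPM in FaDu (SD 4.83). FaDu was lower than Detroit 562 (log2 fold change 1.27, adjusted p = 0.00102) and SCC-9 (-0.84, adjusted p = 0.0165). Detroit 562 and SCC-9 differed by 0.43 in WNT10A (adjusted p = 0.186), which was called without Detroit 562 control replicate 3 (0.63, adjusted p = 0.0728). It was also called with the block (adjusted p = 0.00374). The block pairs libraries within a line only, so between lines its SE leaves out the spread between cultures and is too small.

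WNT7A was the member with the smallest differences between untreated lines, at 24.1 CPM in Detroit 562 (SD 9.69), 22.8 CPM in SCC-9 (SD 2.14) and 17.4 CPM in FaDu (SD 3.06). Its call between Detroit 562 and FaDu (log2 fold change 0.47, adjusted p = 0.0579) was lost in 3 of the fits that leave out a library, and without Detroit 562 control replicate 3 the value was 0.10 (adjusted p = 0.62). FaDu and SCC-9 differed by -0.39 in WNT7A (adjusted p = 0.11), which was called with the block (-0.40, adjusted p = 0.00455). The block also called WNT5A (-0.50, adjusted p = 0.0307) and AXIN2 (-1.06, adjusted p = 0.0364) between FaDu and SCC-9, which gave 10 of 10 members against 65% of all genes. As for WNT10A above, the SE with the block leaves out the spread between cultures. No conclusion is drawn from the calls between lines that it adds.

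The frizzleds kept 1 order among the lines in 2 of 3 cases. FZD6 had 202.1 CPM in FaDu (SD 14.4), 150.7 CPM in Detroit 562 (SD 3.37) and 123.9 CPM in SCC-9 (SD 5.72). FZD8 had 4.13 CPM in FaDu (SD 1.30), 2.32 CPM in Detroit 562 (SD 0.234) and 1.21 CPM in SCC-9 (SD 0.0999). Libraries of the 3 lines did not overlap for either gene. FZD6 differed by 0.71 on the log2 scale between FaDu and SCC-9 (adjusted p = 5.17e-07) and FZD8 by 1.77 (adjusted p = 1.2e-05). The FZD6 difference between Detroit 562 and FaDu, -0.42 (adjusted p = 0.000154), fell under the minimum without FaDu control replicate 1 (-0.38), and that between Detroit 562 and SCC-9, 0.28 (adjusted p = 0.0043), was under it. FZD9 was lowest in SCC-9, at 0.164 CPM (SD 0.0580), by 2.42-fold against Detroit 562 (adjusted p = 0.00939) and 2.1-fold against FaDu (adjusted p = 0.0263).

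Set per kilobase of exon, FZD6 and WNT7B led in Detroit 562 and FaDu, and FZD6 and WNT10A in SCC-9. In control Detroit 562 the order was WNT7B (51.8 CPM per kb), FZD6 (37.1), WNT10A (27.1), WNT5A (9.64), WNT7A (5.33) and WNT10B (1.31), with WNT4, AXIN2, FZD8 and FZD9 under 1. WNT5A and WNT7A, and WNT4, AXIN2 and FZD8 in turn, overlapped with their neighbour in this order, and the other neighbours did not. After HGF, WNT7A reached 10.8 CPM per kb and overlapped with WNT10A, and WNT4 (0.189) and AXIN2 (0.198) were the lowest. In control FaDu the order began with FZD6 (49.7 CPM per kb), WNT7B (18.8), WNT10A (11.2) and WNT7A (3.83), and in control SCC-9 with FZD6 (30.5), WNT10A (20.1), WNT7A (5.02) and WNT7B (4.61), the last 2 of which overlapped. AXIN2 was last in both, at 0.0362 and 0.0565 CPM per kb.

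**Figure D3:**
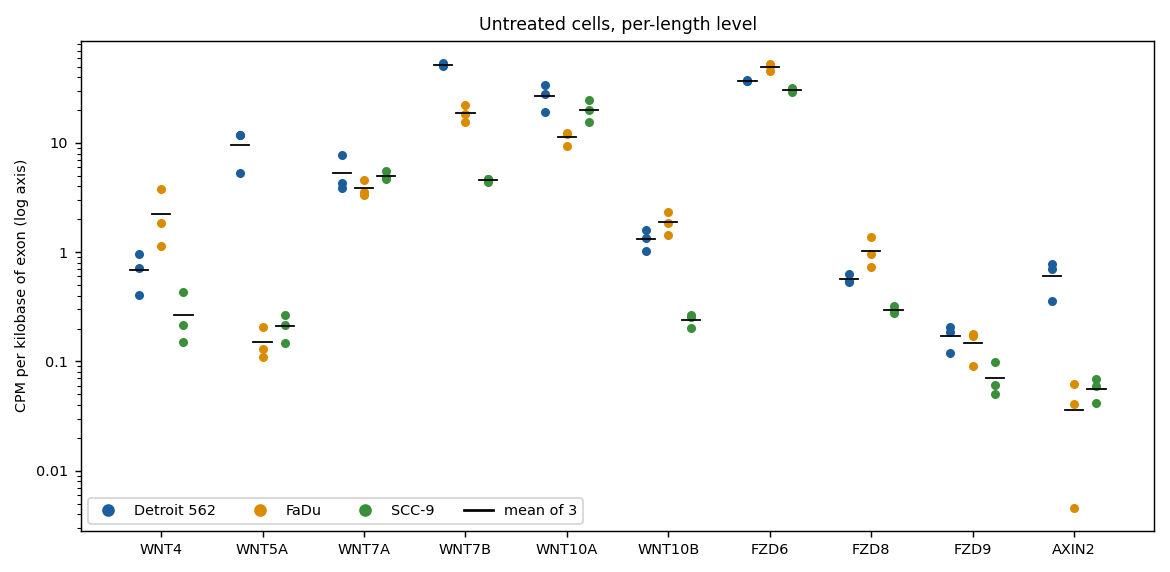
CPM per kilobase of exon (log axis) of the 10 members in untreated Detroit 562, FaDu and SCC-9, with a point per library and the mean of 3 as a black line. WNT5A and AXIN2 are separated most, with mean WNT5A at 9.64 CPM per kb for Detroit 562 against 0.149 for FaDu and 0.210 for SCC-9.

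How the members varied together was described with Pearson's r of log2 CPM over the 18 libraries after taking off the mean of each line. These libraries share their treatment and their depth, so r carries the treatment difference. WNT7A varied with FZD8 (r = 0.855) and WNT10B (0.850) and opposite to WNT4 (-0.878), AXIN2 (-0.854) and WNT10A (-0.849). WNT4 and AXIN2 had an r of 0.828, and WNT10B and FZD9 of 0.857. WNT7B had an r near 0 with FZD8 (0.00256) and WNT5A (0.0143). Of all genes tested, those most like a member were DPP9 (0.98), BAIAP2L2 (0.977) and FOSL1 (0.974) for WNT7A, KLHL13 (0.965), RP11-385D13.1 (0.962) and TRIM16 (0.962) for WNT10A, and PITPNC1 (0.961), MIEF1 (0.957) and STAMBPL1 (0.956) for FZD8. For WNT4 they were CYP1B1 (0.946), RP11-666A8.13 (0.939) and RP11-544M22.13 (0.938), for WNT5A CSRNP3 (0.939), SORL1 (0.922) and RAD51B (0.912), and for WNT10B SRPRA (0.952), ALG3 (0.924) and HAUS7 (0.916). For AXIN2 they were CTC-435M10.3 (0.949), ZNF385C (0.948) and LHPP (0.945), and for FZD9 WNT10B itself, PHKA1 (0.827) and BMP6 (0.813).

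The rest of the pathway was followed with a list of 73 other WNT genes, of which 58 were tested. In Detroit 562, 12 of the 58 were called with HGF, 5 up and 7 down, and the median log2 fold change was 0.07 against -0.01 over all genes. The 17.9% of all genes called in Detroit 562 is the share to read this count against. No other frizzled, co-receptor or ligand secretion gene was called, out of 7, 6 and 2 tested. Of the other ligands 4 of 9 tested were called. WNT5B, the close relative of WNT5A, fell by 0.87 on the log2 scale (adjusted p = 0.0188), and WNT9A fell by 0.58 (adjusted p = 0.0807). WNT6 had 29, 16 and 9 counts in the controls and 2, 1 and 2 after HGF, with a fitted log2 fold change of -3.23 (adjusted p = 0.00612) that depends on the prior count, and WNT8B had 2 to 3 counts and then 3 to 13 (1.44, adjusted p = 0.0962).

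Secreted inhibitors moved both ways, with 4 of 7 tested called. DKK1, which blocks the LRP co-receptors, had 121.8, 146.8 and 215.6 CPM in the controls of Detroit 562 and 248.4, 265.9 and 375.2 CPM after HGF (log2 fold change 0.88, adjusted p = 0.0556). Every treated library of DKK1 exceeded every control. Its relative DKK2 rose by a log2 of 1.08 (adjusted p = 0.00527) at 0.625 to 1.81 CPM. SOSTDC1, an antagonist of WNT and BMP signals, fell by 0.84 (adjusted p = 0.0616), and APCDD1, a membrane-bound inhibitor, fell by 1.92 (adjusted p = 0.0585) on 14 to 32 counts per control and 2 to 10 after HGF. LGR6, a receptor for R-spondins, had 13.9, 11.6 and 8.32 CPM in the controls and 5.49, 5.22 and 2.40 CPM after HGF (log2 fold change -1.36, adjusted p = 0.00708). The groups of LGR6 did not overlap.

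Inside the cell, DVL1, a dishevelled protein that relays the frizzled signal, rose by 0.50 (adjusted p = 0.00307), and TCF7L1, a TCF factor known as a repressor of target genes, fell by 0.43 (adjusted p = 0.0319). NKD2, a feedback inhibitor that binds dishevelled, rose by 1.05 (adjusted p = 0.0569) on 11 to 14 counts per control and 13 to 34 after HGF. Its relative NKD1 had 5 to 7 and 4 to 13 counts and was not called (0.79, adjusted p = 0.238). CTNNB1, which encodes beta-catenin, had 201.8 to 209.8 CPM in the controls and 210.8 to 224.6 CPM after HGF (log2 fold change 0.10, adjusted p = 0.168). CSNK1A1, a kinase of the breakdown complex, had 262.4 to 270.6 and 269.1 to 300.2 CPM (0.07, adjusted p = 0.408).

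Abundant genes at the cell surface also missed the call. FZD1, which had the most reads of the frizzleds outside the members, changed by -0.33 on the log2 scale (adjusted p = 0.166). PTK7, a WNT co-receptor of the polarity branch, had -0.30 (adjusted p = 0.0314), LGR4, an R-spondin receptor, -0.33 (adjusted p = 0.0314) and WLS, the carrier of WNT ligands to the surface, 0.16 (adjusted p = 0.042), all under the minimum of 0.4. Without the minimum 22 of the 58 passed in Detroit 562. The share of all genes that passed without it is not given, so no excess is read from this count. Without control replicate 1 of Detroit 562 the number called was 5 in place of 12, and without control replicate 2 it was 6.

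**Figure D4:**
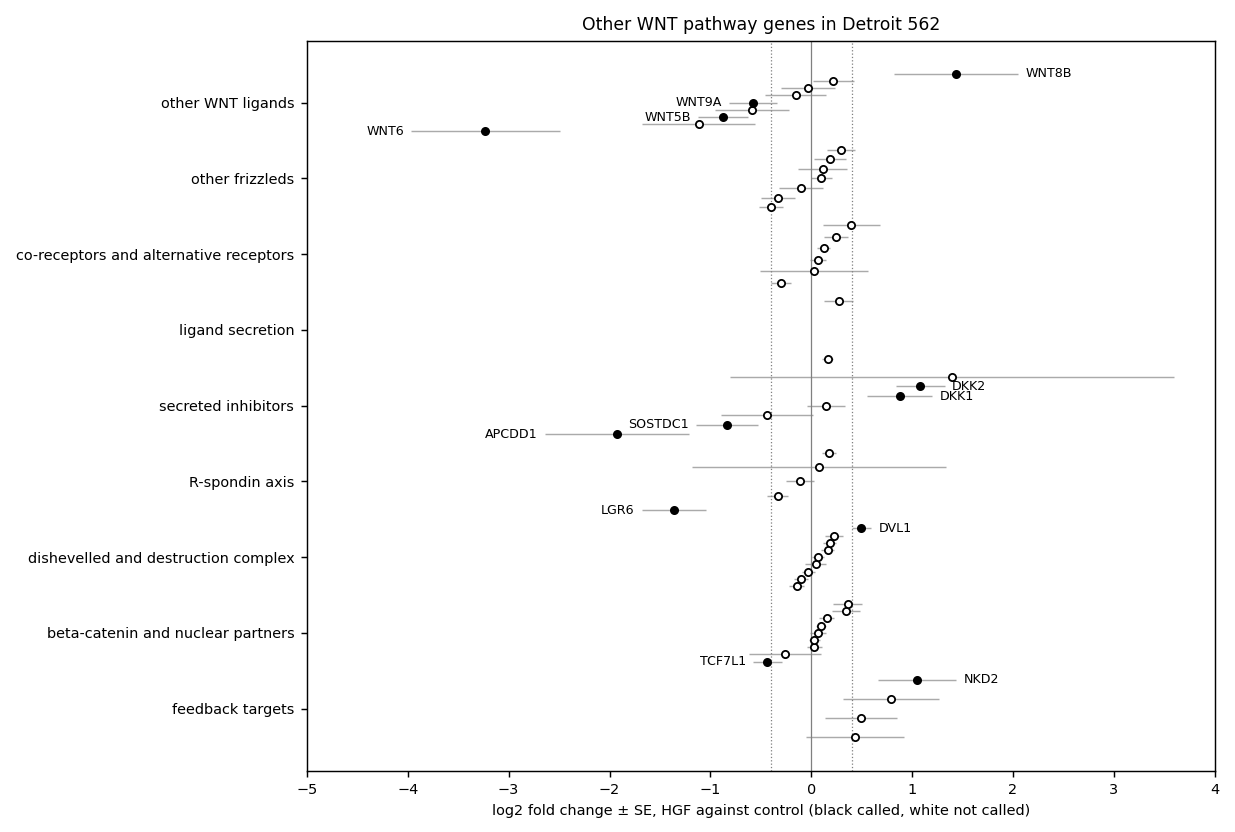
Log2 fold change with its SE of the 58 other WNT genes tested, HGF against control in Detroit 562, grouped by role, with called genes in black and named and dotted lines at 0.4 in each direction. LGR6 (-1.36), WNT6 (-3.23) and APCDD1 (-1.92) lie farthest to the left and DKK2 (1.08), NKD2 (1.05) and WNT8B (1.44) are the called genes farthest to the right.

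In FaDu and SCC-9 edgeR called 0 of the 58 other genes, with 8 and 3 at an unadjusted p below 0.05, and DESeq2 called 1 (SFRP1, which fell) in FaDu and 0 in SCC-9. The share of all genes called by DESeq2 is not given. With the block 8 passed in FaDu, 2 up and 6 down, where 5.6% of all genes did, and 2 in SCC-9, where 1.97% did. The genes in SCC-9 were DKK3 and NOTUM, both secreted inhibitors that fell and were named after their values were seen. In FaDu with the block DKK1 rose (0.47, adjusted p = 0.0196), and WNT9A (-0.64, adjusted p = 0.00031), WNT5B (-0.87, adjusted p = 0.0238), LGR6 (-0.73, adjusted p = 0.0043) and APCDD1 (-1.30, adjusted p = 0.00117) fell. Between the untreated lines 40, 44 and 46 of the 58 were called, for Detroit 562 against FaDu, Detroit 562 against SCC-9 and FaDu against SCC-9, where 61%, 65.4% and 64.2% of all genes were.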

How the data were processed

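mRNA libraries of 3 cell lines were analysed, 18 in 6 groups of 3. According to the study's methods the libraries were stranded and sequenced from one end. By the submitters' processing notes the reads were trimmed with Cutadapt 1.16 and aligned with STAR 2.5.2b to GRCh38.p12, and bedtools was used for counting against GENCODE 28. The deposited values are raw counts per gene, whole numbers that the authors did not normalize, and a read in an overlap of genes on one strand counts for each. Library totals (35304770 to 44003970) set the precision, which for genes with a few reads is low.

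Differences were tested in edgeR 4.0.16 (R 4.3.3) by the quasi-likelihood method on all 18 libraries, with 1 mean per line and treatment, after filterByExpr over the 6 groups and TMM, and with Benjamini-Hochberg adjustment over 15475 genes. DESeq2 1.42.0 was an alternative, and the authors used DESeq2 for their own tests. The thresholds for a call, 0.1 for the adjusted p and 0.4 for the log2 change, follow the study's methods. Both were used between untreated lines, and differences in HGF response between lines used the first alone. Adjusted p values are from edgeR without a block unless said otherwise. CPM used TMM library sizes, and lengths were the exon union of GENCODE 44. For correlations log2 CPM had a prior count of 2.

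The members, lists, thresholds and tests were chosen with earlier results of these data known. Named were all members, for AXIN2 and each member called for HGF the 3 genes with the highest r, the other WNT genes called for HGF in any line, and in each group of that list the gene with the highest mean CPM. SFRP1, DKK3 and NOTUM were named after their values were seen.

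To see whether replicate numbers pair the libraries, each library's deviation from its group mean was taken over all genes, and control was correlated with HGF. In Detroit 562 libraries of one number had r = 0.295, 0.161 and 0.454 (mean of unlike numbers -0.144), in FaDu r = 0.376, 0.441 and 0.563 (mean -0.227) and in SCC-9 r = 0.332, 0.203 and 0.286 (mean -0.136). All values for libraries of one number were over 0.1, so the numbers were taken as pairs. Deviations from a group mean cancel within the group, so the negative means of unlike numbers follow largely from the positive values. They are no separate evidence of pairing. Values from a fit with the number as a block within each line stand beside each result whose call they change. The alternatives were this block, size factors from DESeq2 used in edgeR, no filter on low counts, a filter of 50 counts in 3 libraries, DESeq2 itself (with its prior on fold changes, and without), the lines compared fitted on their own, no minimum change, and each library left out in turn. Libraries of a group differed by more than counting noise, so none was a duplicate.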

Additional observations from a re-analysis of the deposited data

How the results depend on the processing

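With the block of replicate numbers, 4 members were called in FaDu and 2 in SCC-9 in place of 0, and 8 and 2 of the other WNT genes in place of 0. The block also gave 5 members each with a response in Detroit 562 that differed from FaDu and from SCC-9. With it the same 8 members stayed called for HGF in Detroit 562. The share of all genes called there with the block is not given, so this count shows only that the calls held. DESeq2 with its prior and without it called 1 other WNT gene in FaDu, and without a minimum fold change 22 were called in Detroit 562. For these fits, too, shares of all genes are not given, so no excess is read from either count. Size factors of DESeq2, no filter, the filter of 50 counts in 3 libraries and a fit of the lines compared alone left each count within 1.5 times of the value reported.

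Leaving out 1 library gave 7 to 8 members called in Detroit 562, 0 to 1 in FaDu and 0 to 2 members with a different response between Detroit 562 and SCC-9 (0 to 1 against FaDu). For the other WNT genes it gave 5 to 13 in Detroit 562 and 0 to 1 in FaDu. Shares of all genes are not given for these fits, so the counts show only how far the calls held. Some uncalled log2 values changed sign when 1 library was left out. With HGF in FaDu these were WNT7B (-0.078 to 0.18), WNT10B (-0.044 to 0.30), FZD6 (-0.18 to 0.013) and FZD9 (-0.064 to 0.36), and in SCC-9 WNT5A (-0.31 to 0.41). In untreated cells they were FZD9 between Detroit 562 and FaDu (-0.051 to 0.41) and WNT7A between Detroit 562 and SCC-9 (-0.29 to 0.27). Among differences in response they were FZD6 for Detroit 562 against FaDu (-0.14 to 0.044), FZD9 for Detroit 562 against SCC-9 (-0.094 to 0.70), and for FaDu against SCC-9 WNT4 (-0.39 to 0.72), WNT7A (-0.10 to 0.24), WNT7B (-0.16 to 0.10), FZD6 (-0.12 to 0.069) and AXIN2 (-0.78 to 0.39). The cause was not tested. AXIN2 in FaDu and SCC-9 and FZD9 in each line were read with at most 40 counts per library, which limits what can be shown for them.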
